A study of Mus musculus with 3 samples.

Results

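Impact, Zdbf2, Slc38a4, Peg13, Trappc9 and Kcnk9 are imprinted genes whose control regions are methylated on the maternal chromosome and that stand alone or in small domains, outside the large imprinted clusters. Every probe set whose only gene symbol in the platform annotation was one of these names was taken, which gave 9 of the 45037 probe sets left after the array controls were removed. The 9 probe sets covered 4 of the 6 genes. Impact had 3, Slc38a4 had 2, Zdbf2 had 1 and Trappc9 had 3. Peg13 and Kcnk9 had no probe set under a single symbol and were not analysed here.

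RNA came from mouse embryos collected whole at 8.5 days post coitum, and each of 3 single-channel Affymetrix arrays received 1 pool of litter mates of mixed sex. The normal group was 1 pool of 6 C57Bl/6J embryos. The mutant group was 2 biological replicate pools, of 8 embryos (mutant pool 1) and 6 embryos (mutant pool 2), all Dnmt3l-/+. Their dams were Dnmt3l-/-, their sires wildtype and the strain background C57Bl/6J. Each pool is 1 sample, so differences between single embryos were not measured, and the normal group has no replicate. All mutant embryos carry a wildtype paternal Dnmt3l allele, and the series title calls them deficient in maternal methylation. Dnmt3l read 12.2 in the normal pool and 183 and 14.3 in mutant pools 1 and 2, and where its probes lie relative to the deletion was not analysed here, so it does not check the labels. The arrays shared a trimmed mean signal of 500, and the median signals were 143.6 on the normal array and 130.0 and 139.6 on those of mutant pools 1 and 2. In bulk RNA, fewer cells of a type and less RNA per cell cannot be told apart.

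At a maternally marked locus the egg sets DNA methylation with the help of Dnmt3l, a cofactor of the de novo methyltransferases. The marked maternal copy of a gene such as Impact or Slc38a4 is silent and the unmarked paternal copy is read. Zdbf2 is also known as read from the paternal copy, and the methylation of its copies in these embryos was not measured. In the Peg13 domain the unmarked paternal copy makes the noncoding RNA Peg13, while Trappc9 and Kcnk9 are known in mouse brain for a bias towards the maternal copy. The comparison therefore asks how the total signal of these genes differs in embryos of dams that lacked Dnmt3l. Whether the marks were absent at these genes was not measured. The arrays do not tell the 2 parental copies apart.

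The promoters are shown first because the methylation that the egg lays down lies at CpG dinucleotides. Where the egg's marks lie at these genes was not analysed here, and they may lie outside the windows shown. Sequence after the start sites was not read. RefSeq's promoter windows (GRCm38.p6) were used for 2 of the 6 genes, Zdbf2 and Slc38a4, and the 250 bases before each annotated start site were read. Zdbf2 has 2 annotated start sites that lie 72.9 kb apart, and Slc38a4 has 3 that span 35.6 kb. Sequences run 5′ to 3′ on the gene's own strand, and capitals mark CpG dinucleotides.
Zdbf2, upstream start, chr1:63200108-63200357, plus strand: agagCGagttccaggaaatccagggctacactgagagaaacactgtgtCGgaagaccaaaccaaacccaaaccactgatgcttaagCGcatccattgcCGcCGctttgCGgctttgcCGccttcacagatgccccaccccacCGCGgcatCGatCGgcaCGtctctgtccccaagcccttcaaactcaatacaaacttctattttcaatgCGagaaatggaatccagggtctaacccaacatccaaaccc
Zdbf2, downstream start, chr1:63273019-63273268, plus strand: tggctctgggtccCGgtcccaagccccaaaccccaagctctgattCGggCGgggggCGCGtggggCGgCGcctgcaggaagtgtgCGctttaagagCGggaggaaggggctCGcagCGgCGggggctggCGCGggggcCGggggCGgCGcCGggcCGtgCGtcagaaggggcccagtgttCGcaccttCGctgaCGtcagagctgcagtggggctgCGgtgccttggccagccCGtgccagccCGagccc
Slc38a4, upstream-most start, chr15:97055957-97056206, minus strand: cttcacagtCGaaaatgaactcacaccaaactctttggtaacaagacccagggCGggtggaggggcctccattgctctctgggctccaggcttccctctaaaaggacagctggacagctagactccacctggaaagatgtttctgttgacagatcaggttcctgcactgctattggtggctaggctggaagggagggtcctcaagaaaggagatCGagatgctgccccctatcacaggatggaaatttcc

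The Zdbf2 windows differ in CpG content. The downstream window held 26 CpG at 74.4% G and C, a CpG number that 9.59% of the 32851 windows of this length reached. The upstream window held 13 CpG at 52.8% G and C, a number reached by 31.5% of windows, and the median window held 6. The 3 Slc38a4 windows held 3, 5 and 5 CpG, numbers that 71.0%, 55.6% and 55.6% of all windows reached, so none of them was CpG-rich.

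The hexamer TGCCGC, known as the motif that the imprint-protecting zinc finger protein ZFP57 binds when it is methylated, was searched on both strands (GCGGCA on the other). The motif was chosen after the windows had been seen. The upstream Zdbf2 window held 3 matches that do not overlap, starting 155, 136 and 107 bases before the start site, the last of them on the other strand. Of all windows, 8.68% held the hexamer at least once and 0.0731% held 3 or more. The hexamer itself holds a CpG, and this window had 13 CpG where the median window had 6. Windows of like CpG content were not compared. The downstream Zdbf2 window and the 3 Slc38a4 windows held none. A match is a run of letters and not a measured site, and which start site the array's Zdbf2 signal comes from was not tested.

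Over all 9 probe sets, 5 read higher in both mutant pools than in the normal pool, where 32.6% of all 45037 probe sets did. They were the brightest Impact probe set, the Zdbf2 probe set, both Slc38a4 probe sets and the brightest Trappc9 probe set. A dim Trappc9 probe set read lower in both, as 39.4% of all probe sets did, and for the other 3 the normal signal lay between the mutant signals. Differences were tested with limma over the 27022 probe sets kept by a filter on dim signals, which kept 7 of the 9. The threshold was an adjusted p of 0.05, and 0.548% of kept probe sets passed it as higher and 0.0296% as lower. None of the 7 passed, while 3 of them had an unadjusted p (limma) under 0.05 as higher, as 6.7% of kept probe sets had. The members were chosen with earlier results of these data known, so these shares are a description and not a test. None of the 7 reached a log2 ratio of 1 in both mutant pools, which 2.57% of kept probe sets did. Log2 ratios below compare log2(signal + 31.9) in the mutant pools with the normal pool, which understates changes of dim probe sets. Intervals and tests take the spread of the normal pool to equal that between the 2 mutant pools.

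**Figure D1:**
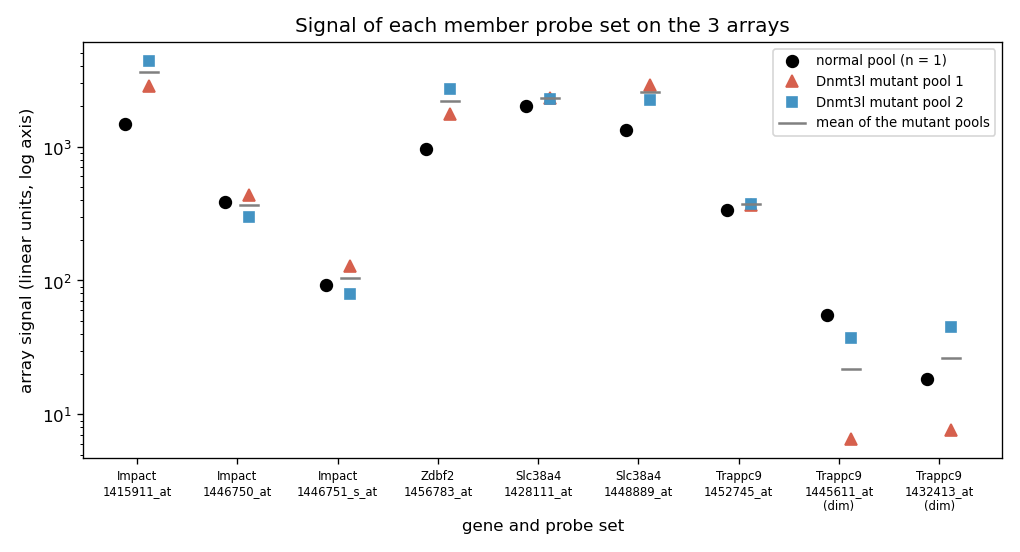
Array signal (linear units on a log axis) of the 9 probe sets on the normal array (circles), mutant pool 1 (triangles) and mutant pool 2 (squares), with a bar at the mutant mean. The first Impact probe set, Zdbf2 and the second Slc38a4 probe set (1328 against 2875 and 2243) stand clear of the normal pool, and the 2 probe sets marked dim were removed by the filter.

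Impact codes for a protein that binds the GCN2 activator GCN1 and so limits the kinase GCN2, which slows translation when amino acids are short. Its brightest probe set, 1415911_at, which the annotation ties to the RefSeq mRNA, read 1469.9 in the normal pool, 2835 in mutant pool 1 and 4329 in mutant pool 2. Both mutant signals lay above the normal one, by 1.93 and 2.95 times. The mutant mean was 3582 ± 1056 (SD, n = 2), and the log2 ratio was 1.24 (SE 0.29, 95% interval 0.51 to 1.96). It did not pass (limma adjusted p = 0.186), and 2.26% of kept probe sets had a higher log2 ratio.

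The other Impact probe sets did not show this difference. Both are tied to a single RIKEN expressed sequence tag, not to the mRNA, and where their probes lie in the gene was not analysed here. Probe set 1446750_at read 386 in the normal pool, 433 in mutant pool 1 and 298 in mutant pool 2, a log2 ratio of -0.10 (95% interval -0.90 to 0.71, limma adjusted p = 0.924). Probe set 1446751_s_at read 92.1, 129 and 79.3 in the same order, a log2 ratio of 0.11 (95% interval -0.89 to 1.11, limma adjusted p = 0.931). In both, mutant pool 1 read above and mutant pool 2 below the normal pool, the opposite order to 1415911_at, where mutant pool 2 was the higher. The rise at 1415911_at was therefore not seen at the other Impact probe sets, whose intervals ran from negative to positive values. An unweighted mean of the 3 gave a log2 ratio of 0.42.

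Zdbf2 codes for a zinc finger protein whose dose in the mouse hypothalamus is known to bear on feeding and growth after birth. Its only probe set, 1456783_at, tied to a RIKEN expressed sequence tag, read 966 in the normal pool, 1741 in mutant pool 1 and 2669 in mutant pool 2. Both mutant signals were higher, by 1.80 and 2.76 times, and the mutant mean was 2205 ± 656 (SD, n = 2). The log2 ratio was 1.13 (SE 0.30, 95% interval 0.38 to 1.89) and did not pass (limma adjusted p = 0.221). Of kept probe sets, 2.78% had a higher log2 ratio.

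Impact (1415911_at) and Zdbf2 resembled each other in how the mutant pools ranked. In mutant pool 2 their log2 ratios were above those in mutant pool 1 by 0.61 and 0.61. A smaller gap between the mutant pools was found in 85.7% and 85.8% of kept probe sets, so both genes varied between the 2 mutant pools more than most. With so few arrays this likeness is a description.

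Slc38a4 codes for a sodium-coupled transporter of neutral amino acids (system A), known from liver and placenta. Its 2 probe sets gave different sizes. Probe set 1448889_at, tied to the RefSeq mRNA, read 1328 in the normal pool, 2875 in mutant pool 1 and 2243 in mutant pool 2, and both mutant signals were higher. The mutant mean was 2559 ± 447 (SD, n = 2), the log2 ratio 0.92 (SE 0.23, 95% interval 0.33 to 1.50), and it did not pass (limma adjusted p = 0.207). Here mutant pool 1 was the higher one.

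Probe set 1428111_at, tied to a RIKEN cDNA, read 1990.3 in the normal pool and 2317 and 2259 in mutant pools 1 and 2. The mutant pools were close to each other and both above the normal pool, with a mean of 2288 ± 41.3 (SD, n = 2). The log2 ratio was 0.20 (SE 0.19, 95% interval -0.28 to 0.68, limma adjusted p = 0.709), and 26.8% of kept probe sets had a higher one. The mean of both probe sets gave 0.56, and whether the probe sets measure different transcripts was not tested.

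Trappc9 is a subunit of the TRAPP vesicle-tethering complex and is also known for a role in NF-kappaB signalling. Of Peg13, Trappc9 and Kcnk9, only Trappc9 had probe sets under a single symbol. Its brightest probe set, 1452745_at, read 335 in the normal pool, 368 in mutant pool 1 and 374 in mutant pool 2. The mutant mean was 371 ± 4.30 (SD, n = 2), and both mutant pools lay above the normal pool. The log2 ratio was 0.13 (SE 0.27, 95% interval -0.54 to 0.81, limma adjusted p = 0.868).

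The other Trappc9 probe sets were dim. Probe set 1445611_at read 55.4 in the normal pool, 6.55 in mutant pool 1 and 37.5 in mutant pool 2, and 1432413_at read 18.4, 7.60 and 45.3. The filter removed both, and the mutant pools lay on both sides of the normal pool for 1432413_at. On the normal array, 28.3% and 13.8% of all 45037 probe sets read lower than these.

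**Figure D2:**
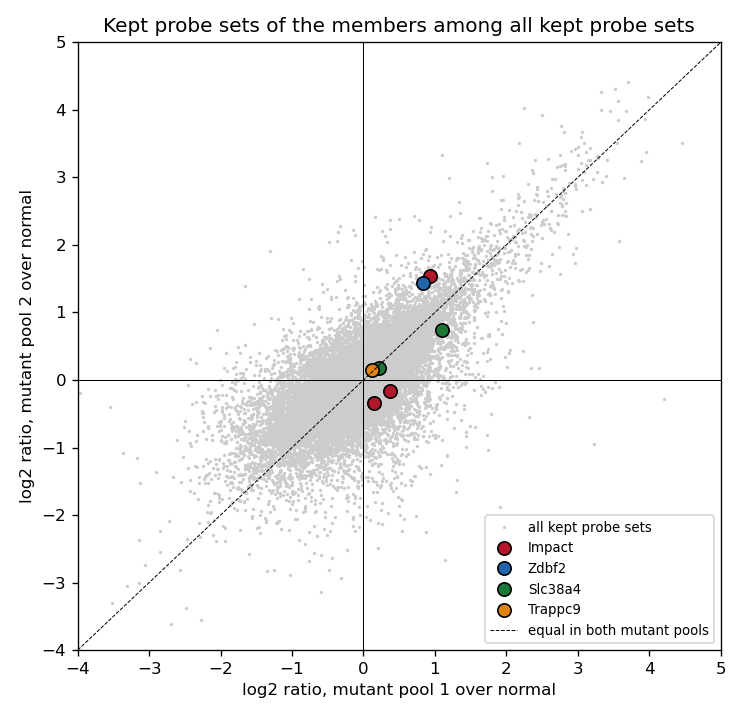
Log2 ratio over the normal pool in mutant pool 1 (horizontal) and mutant pool 2 (vertical) for the kept probe sets, of which 4 lie outside the drawn range, with the 7 kept probe sets of Impact, Zdbf2, Slc38a4 and Trappc9 in colour. Impact 1415911_at and Zdbf2 lie side by side above the dashed line of equality, Slc38a4 1448889_at lies below it at 1.10 and 0.74, and the other 4 lie near the centre.

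The genes with the most similar pair of log2 ratios were found by Euclidean distance over the 2 mutant pools among 12912 other genes. Nearest to Impact were Tec (distance 0.05), Gpr182 (0.05) and Mylip (0.06), and 25 genes lay within 0.2. Nearest to Zdbf2 were Slc35b3 (0.04), Afap1 (0.04) and Slc23a3 (0.05), with 27 genes within 0.2. For Slc38a4 (1428111_at, the brighter by the average of the normal and the mean mutant log2 values, though not in mutant pool 1, and the less changed of its 2 probe sets) they were Atf7, Crtc3 and Spag1, and for Trappc9 they were Sdhaf3, Zfp644 and Tent4b. As many as 1575 and 1802 genes lay within 0.2 of these, so their patterns were common on the array.

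Other imprinted genes were listed as read from the paternal copy in maternally marked domains, and those kept were also mostly higher in the mutant pools. The filter removed Snrpn, Zim2 and Gnasas1, whose probe sets under a single symbol were dim. Probe sets with several symbols were not used, so this does not show how strongly these genes were read. Which copy of the listed genes was read in these embryos was not tested. Of 19 measured, the filter kept 16, and 11 of these were higher in both mutant pools and none was lower in both, beside 36.5% higher and 39.1% lower of all 12913 genes kept. Limma called 1 higher and 0 lower, where 0.728% and 0.0310% of all genes kept were called. That 1 was the zinc finger gene Plagl1, which rose from 3617 to 11462 and 15204 (log2 ratio 1.86, limma adjusted p = 0.0408). The list's median log2 ratio was 0.36 (0.28 in mutant pool 1 and 0.54 in mutant pool 2), against -0.02 over all genes kept. By brightest probe set, as in the list, Impact (1.24) and Zdbf2 (1.13) were above that median, while Slc38a4 (0.20) and Trappc9 (0.13) were below it. The other Slc38a4 probe set (0.92) was above it, and the other kept Impact probe sets (-0.10 and 0.11) were below it. The list's named genes were Sgce, a sarcoglycan gene, at 0.97, Magel2 at -0.15 and the noncoding RNA Airn at -0.07.

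Genes beside the members on the chromosome were measured as a set of neighbours. Of 14 measured, 12 were kept, 0 were higher and 7 were lower in both mutant pools, and none passed in either direction. Of all genes kept, 36.5% were higher and 39.1% lower in both mutant pools. The neighbours' median log2 ratio was -0.24. Gpr1, a receptor gene next to Zdbf2 that is also known as paternally expressed, read 148 in the normal pool and 91.2 and 157 in mutant pools 1 and 2, so the mutant pools lay on both sides. Slc38a2 and Slc38a1, the amino acid transporter genes beside Slc38a4, read lower in both mutant pools, with log2 ratios of -0.32 and -0.43. Beside Impact, Osbpl1a, an oxysterol-binding protein gene, had 0.08 (-0.09 and 0.26 in mutant pools 1 and 2). Cabyr, a calcium-binding protein gene, had -0.70. Near Trappc9, Chrac1, a chromatin accessibility subunit gene, had -0.54 and Ago2, the slicing Argonaute gene, 0.09. Whether Chrac1 and Ago2 belong to the Peg13 imprinted domain was not tested. Which parental copy of the neighbours was read was not tested either, so the neighbours are not a set of unimprinted genes. With median centring of the arrays, 2 neighbours were higher in both.

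The pathway on which IMPACT acts was followed through GCN1, GCN2 and genes of the amino acid starvation response. Of 14 measured, 13 were kept, 8 were higher and 3 lower in both mutant pools, none passed, and the median log2 ratio was 0.23. Beside this and the lists that follow, 36.5% of all genes kept were higher and 39.1% lower in both mutant pools. Gcn1 read 1167 in the normal pool and 857 and 977 in mutant pools 1 and 2, and Eif2ak4, the gene of GCN2, read 496 against 382 and 386. Both were lower in both mutant pools, with log2 ratios of -0.34 and -0.35 that did not pass (limma adjusted p = 0.590 and 0.622). Among genes that the pathway induces, Ppp1r15a, which restores translation, had 0.50, and Chac1, which breaks down glutathione, had 0.47. Of other induced genes, the transcription factor genes Atf3 and Ddit3, named after their values were seen, had -0.46 and -0.02.

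The SLC38 transporters apart from Slc38a4 split. All 8 measured were kept, 5 were higher and 3 lower in both mutant pools, none passed and the median log2 ratio was 0.15. Slc38a6 read 421 in the normal pool and 1656 and 1388 in mutant pools 1 and 2, a log2 ratio of 1.77 that missed the threshold (limma adjusted p = 0.0610), and Slc38a5 had 1.39. Slc38a1 and Slc38a2, given above as neighbours, were the lowest in the family.

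Of the other TRAPP subunits, 13 were measured and kept, 8 were higher and 3 lower in both mutant pools, none passed and the median log2 ratio was 0.14. Trappc8 read 1010.2 in the normal pool and 2075 and 2339 in mutant pools 1 and 2 (log2 ratio 1.10, limma adjusted p = 0.128), and Trappc6b had 0.72. Trappc5 read 655 against 375 and 377 (-0.75), and Trappc4 had -0.31. Of the potassium channels related to Kcnk9, 12 were measured and 8 kept, with 3 higher, 4 lower, none passing and a median of -0.39. Kcnk4 had 0.96 and Kcnk6 0.68, while Kcnk16 had -0.89 and Kcnk10 -0.79. Several of these signals were low. Kcnk4 read 74.0 in the normal pool, below that array's median, and 128 and 234 in mutant pools 1 and 2. Kcnk16 read 215 against 109 and 94.7, and Kcnk10 144 against 78.7 and 62.0, with the mutant signals below their arrays' medians.

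**Figure D3:**
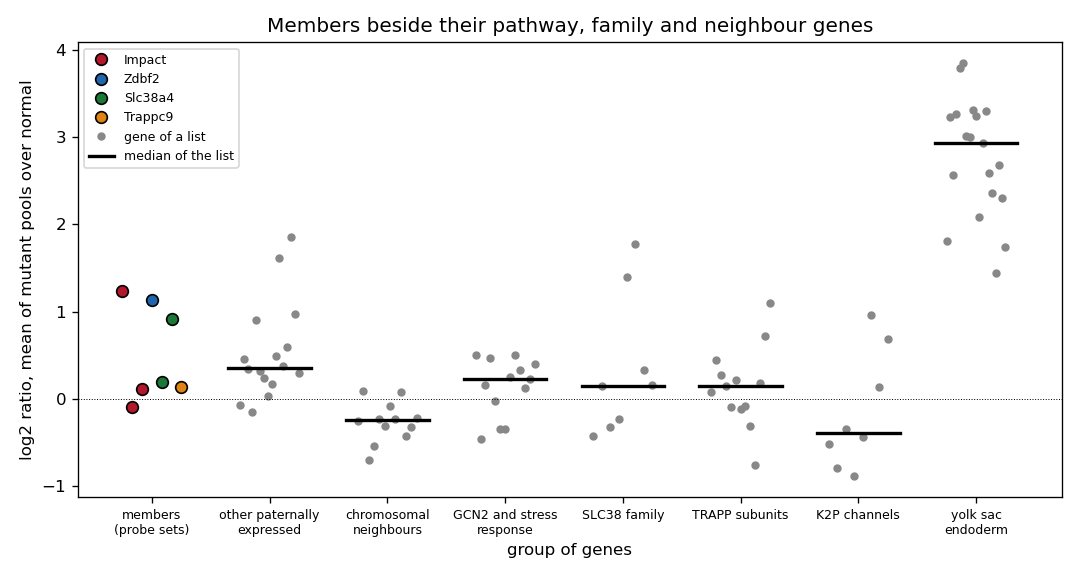
Log2 ratio of the mean of the mutant pools over the normal pool, for the 7 kept probe sets of the members (coloured) and, for each list, 1 grey point per kept gene with a bar at the list's median. The neighbours' median is -0.24 and that of the other paternally expressed genes 0.36, while the yolk sac endoderm genes lie apart at a median of 2.93.

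Markers of several tissues differed between the pools in the same arrays. Of 19 yolk sac endoderm markers measured, all 19 were higher in both mutant pools. Of these, 17 passed the limma threshold as higher, among them Apob and Apoa4, where 0.728% of all genes kept did. The median log2 ratio of these markers was 2.93. Their summed signal was 26437 in the normal pool and 146205 and 152879 in mutant pools 1 and 2. Red cell markers were higher in 11 of 11 kept genes (median 1.52), with 2 passing as higher, Hba-x and Slc4a1. Endothelial markers were higher in 8 of 10, with none passing. Neural tube markers were lower in both mutant pools in 11 of 15 kept genes (median -0.66) and higher in 1, Elavl3, with none passing. Their summed signals were 11935 in the normal pool and 6110 and 9180 in mutant pools 1 and 2. Of 5 kept trophoblast markers, 3 were higher and 2 lower, and 1, Esx1, passed as higher. Of 9 decidual markers, 2 were higher and 5 lower, and Prl8a2 fell from 1376 to 91.2 and 111. No marker was listed at 0. How much of the Impact, Zdbf2 or Slc38a4 values moves with these markers was not tested.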

How the data were processed

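Expression was measured on 3 arrays, 1 normal and 2 mutant. The authors deposited 1 linear intensity value for each probe set on each array. GCOS and MAS5 are named in the submitters' processing notes. With 2% of values trimmed from either end, each array had a mean of 500. The genome build behind the probe sets is not given in the sources used here. Scanner files were not used here.

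Of 45101 probe sets, 64 array controls were left out. The platform annotation gave 34945 probe sets 1 gene symbol and 932 several, and it did not list 9160. A pseudocount of 31.9 (20th percentile of signal, median of the arrays) was added before log2. The filter kept probe sets whose average of both groups' mean log2 values reached the 40th percentile. Limma (version 3.58.1, R 4.3.3) was fitted with lmFit and eBayes with a variance trend, two-sided, with Benjamini-Hochberg adjustment over the 27022 kept. The mutant arrays gave 1 residual degree of freedom, with 4.52 prior degrees from eBayes. The number of arrays limits the precision. The fit was tested on simulated data. Their spread was drawn from the fit's own variance estimates and was equal in all arrays, so they do not test the unreplicated normal pool. A gene stands for its brightest kept probe set.

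Alternatives changed the pseudocount, the filter, the scaling, the variance trend, the probe set rule and the arrays used. All members were named, and each other list gave its passing genes or its highest and lowest by the less changed mutant array, and marker lists only examples. Gpr1 was added after its values were seen. Members and lists were chosen with earlier results of these data known.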

Additional observations from a re-analysis of the deposited data

How the results depend on the processing

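No probe set of Impact, Zdbf2, Slc38a4 or Trappc9 passed under the alternatives that gave a limma test, and no tested mean log2 ratio changed sign. Single mutant pools and averaged probe sets gave values with no test, and the 2 dim Trappc9 probe sets were tested only without the filter. In single mutant pools the dimmer Impact probe sets took both signs, 0.15 and -0.34 for 1446750_at and 0.37 and -0.16 for 1446751_s_at. Over the tested alternatives, the log2 ratio of Impact 1415911_at ranged from 1.21 to 1.31 (limma adjusted p from 0.118 to 0.361), for Zdbf2 from 1.10 to 1.21 (0.151 to 0.371), for Slc38a4 1448889_at from 0.88 to 0.99 (0.188 to 0.361) and for Trappc9 1452745_at from 0.12 to 0.21 (0.797 to 0.897). In mutant pools 1 and 2 alone it was 0.93 and 1.54 for Impact 1415911_at, 0.83 and 1.44 for Zdbf2, and 1.10 and 0.74 for Slc38a4 1448889_at. Taking the mean of a gene's probe sets gave 0.42 for Impact and 0.56 for Slc38a4, in place of 1.24 and 0.20 for the brightest. The dim Trappc9 probe set 1445611_at had -0.76, and -1.73 with a pseudocount of 1.

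Over the whole array the 148 higher and 8 lower calls became 263 and 24 with median centring. They became 0 and 0 with no filter (2423 and 2451 at an unadjusted limma p under 0.05), and 0 and 0 without the variance trend (1641 and 1814). Among the other paternally expressed genes the number lower in both was 0, and 1 without the filter, and 2 to 3 read lower when a single mutant pool was used. Neighbours higher in both numbered 0, and 1 without the filter, 2 with median centring, 1 with averaged probe sets and 1 to 4 in a single mutant pool. Neighbours lower numbered 7, and 8 to 11 in a single pool. TRAPP subunits lower numbered 3, and 5 with averaged probe sets and 3 to 5 in a single pool, and potassium channels lower numbered 4, and 1 with the stricter filter. No paired analysis was possible because the normal group has 1 array and its label carries no replicate number. The cause of these changes was not tested.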
